A study of Homo sapiens with 12 samples.

Results

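The genes described here are 50 genes of the G2 phase and mitosis, read in 12 RNA sequencing libraries of K-562 cells, a human erythroleukemia line. They were chosen by name, as cyclins, mitotic kinases, checkpoint, kinetochore, spindle, cytokinesis and chromosome condensation genes. All 50 were found among the 60658 rows of the table. Of these, 49 were among the 13393 genes tested, those that reached 1 FPKM (fragment abundance scaled by transcript length and library size) in 3 or more libraries. UBE2C, the ubiquitin-conjugating enzyme of the anaphase-promoting complex, was not tested, since its listed values ran from 0.327 to 1.69 FPKM over the 12 libraries. These are low for a gene of dividing cells, and whether they give the level of its transcript was not tested.

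The design has 4 groups of 3 libraries. D152V_Rescue libraries come from a stable K-562 line expressing 3xTY-D152V, a tagged MYB whose name gives its amino acid change, treated with the MYB siRNA si2992. MYB-WT_Rescue libraries come from a line expressing 3xTY-hcM, tagged wild-type MYB, and received the same siRNA. MYB_KnockDown libraries come from a line expressing the 3xTY1 tag alone, with si2992, and siRNA_Control libraries come from the tag line with a non-targeting siRNA. G418 was used to select all lines, and cells were harvested for RNA 24 hours after the siRNA, in separate experiments. The rescue groups are separate stable lines, so that a difference between lines and an effect of the introduced MYB cannot be told apart. No label says whether a line is 1 clone.

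Cells enter mitosis when cyclin B and its partner CDK1 are activated. Kinetochores then tie chromosomes to spindle microtubules, the spindle checkpoint holds back anaphase until every chromosome is attached, and a contractile ring divides the cell. Most genes of this program are transcribed late in the cell cycle, from promoters that carry a cell cycle homology region (CHR) and CCAAT boxes, which are read by the DREAM repressor, by the MuvB complex with MYBL2 (B-MYB) and FOXM1, and by NF-Y. MYB (c-MYB) is a relative of MYBL2 that keeps blood progenitors, and many leukemia cells, in an immature and dividing state.

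MYB itself measured 86.6, 86.2 and 100.4 FPKM in D152V_Rescue, 132, 125 and 115 in MYB-WT_Rescue, 26.1, 32.9 and 31.5 in MYB_KnockDown and 124, 132 and 104 in siRNA_Control libraries. The knockdown libraries lay below all others, and the log2 change of knockdown against control was -1.96 (SE 0.13, limma adjusted p = 3.03e-05). These values add up endogenous MYB and any transgene transcript. Library depth is unknown. In 11 libraries the summed FPKM lay between 672616 and 798362, while MYB_KnockDown replicate 1 summed to 1215578, and its lowest correlation with a library of its group was 0.929, against at least 0.983 for pairs of the other groups. The share of summed FPKM in ribosomal protein genes was 23.6%, 17.2% and 16.3% in the MYB_KnockDown libraries, against 10.3% to 14.4% in the 9 others. All 12 erythroid and K-562 markers examined had a mean over 1 FPKM. Of 14 markers of other cell types, 7 stayed under 1 FPKM in every library, among them MS4A1 at 0, and the highest mean was 56.4 FPKM, that of EPCAM. Summed over the 14, they came to 141.9 to 173 FPKM in D152V_Rescue, 137 to 175.5 FPKM in MYB-WT_Rescue, 133.5 to 249.6 FPKM in MYB_KnockDown and 139.5 to 167 FPKM in siRNA_Control libraries, and their part in the results was not tested. In bulk RNA, fewer cells in mitosis and less RNA per cell cannot be told apart.

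Promoters of the members were examined for the motifs of late cell cycle genes. RefSeq promoters (GRCh38.p14, 250 bases before to 50 bases after the start) were matched for 43 of the 50 members. The CHR, searched as TTTGAA on both strands, was found in 32 of 43 members, or 74.4%, and in 18.2% of the 27305 gene symbols with a promoter. The variant TTTAAA was found in 32.6% of members and 14.5% of all symbols. CCAAT was found in 79.1% of members and 39.7% of all symbols, and 25 members held both TTTGAA and CCAAT. The share of all symbols with both was not counted, so that count does not show a pairing of the motifs. The short MYB core AACNG was found in 40 of 43 members and 80.5% of all symbols, so that most promoters of any gene hold one. In the narrower window of 150 bases before and 50 after the start, TTTGAA was found in 72.1% of members and 11.5% of all symbols, CCAAT in 76.7% and 31.1%, TTTAAA in 27.9% and 8.8%, and AACNG in 86.0% and 67.9%. A match is a description of letters, not a bound site.

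The promoter stretches of 9 members on which the comparisons below turn are printed from 100 bases before to 50 bases after the start, all on the plus strand of GRCh38.p14. They lie at chr15:59105046-59105195 for CCNB2, chr15:69414249-69414398 for KIF23, chr10:89701490-89701639 for KIF20B, chr1:214603095-214603244 for CENPF, chr5:163460532-163460681 for HMMR, chr18:2571457-2571606 for NDC80, chr3:160399550-160399699 for SMC4, chr15:40160969-40161118 for BUB1B and chr20:3786851-3787000 for CDC25B. Capitals mark TTTGAA and CCAAT, and their reverse complements TTCAAA and ATTGG.
CCNB2: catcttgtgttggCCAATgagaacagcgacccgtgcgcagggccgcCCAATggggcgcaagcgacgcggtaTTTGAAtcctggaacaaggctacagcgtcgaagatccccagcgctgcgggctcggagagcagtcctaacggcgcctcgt
KIF23: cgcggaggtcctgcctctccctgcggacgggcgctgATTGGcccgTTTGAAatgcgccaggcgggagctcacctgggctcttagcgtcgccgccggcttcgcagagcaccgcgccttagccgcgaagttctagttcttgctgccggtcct
KIF20B: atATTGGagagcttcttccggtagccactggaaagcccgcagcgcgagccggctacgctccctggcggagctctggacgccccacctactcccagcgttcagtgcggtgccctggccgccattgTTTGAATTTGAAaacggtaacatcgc
CENPF: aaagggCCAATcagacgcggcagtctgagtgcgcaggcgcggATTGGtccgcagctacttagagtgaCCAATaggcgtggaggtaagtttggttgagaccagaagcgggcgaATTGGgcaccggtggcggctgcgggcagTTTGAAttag
HMMR: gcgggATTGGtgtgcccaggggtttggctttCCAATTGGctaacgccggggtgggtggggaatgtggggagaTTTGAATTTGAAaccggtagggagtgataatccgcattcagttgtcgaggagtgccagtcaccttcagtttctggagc
NDC80: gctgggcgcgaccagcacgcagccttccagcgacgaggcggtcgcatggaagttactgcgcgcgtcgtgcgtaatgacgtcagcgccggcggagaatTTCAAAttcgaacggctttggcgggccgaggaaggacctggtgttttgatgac
SMC4: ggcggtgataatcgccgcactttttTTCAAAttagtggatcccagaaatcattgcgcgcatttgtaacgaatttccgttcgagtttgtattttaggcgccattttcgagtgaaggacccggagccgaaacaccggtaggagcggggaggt
BUB1B: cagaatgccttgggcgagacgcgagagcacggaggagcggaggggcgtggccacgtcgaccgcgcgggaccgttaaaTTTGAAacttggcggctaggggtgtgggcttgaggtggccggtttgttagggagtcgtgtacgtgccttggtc
CDC25B: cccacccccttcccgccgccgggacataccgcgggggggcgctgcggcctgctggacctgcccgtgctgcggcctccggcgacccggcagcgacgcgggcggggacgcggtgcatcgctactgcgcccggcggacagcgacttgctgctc
KIF20B and HMMR each carry TTTGAA as a direct repeat, after the start in KIF20B and before it in HMMR. CENPF holds 4 CCAAT boxes in this stretch, and NDC80, SMC4 and BUB1B hold none beside a single CHR. CDC25B holds neither motif in this stretch.

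Members were expressed at high levels for this line. In the control libraries the mean FPKM of tested members ran from 11.9 for CDC25C, the phosphatase that activates CDK1, to 337 for PTTG1, the securin that restrains separase. Their median was 40.8 FPKM, against 11.4 FPKM over all tested genes. PTTG1 has near-identical copies and KIF4A a retrocopy, so their values are uncertain. Values of 3 libraries are given below in the order of replicates 1, 2 and 3, and coordinates are those of RefSeq genes on GRCh38.p14.

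**Figure D1:**
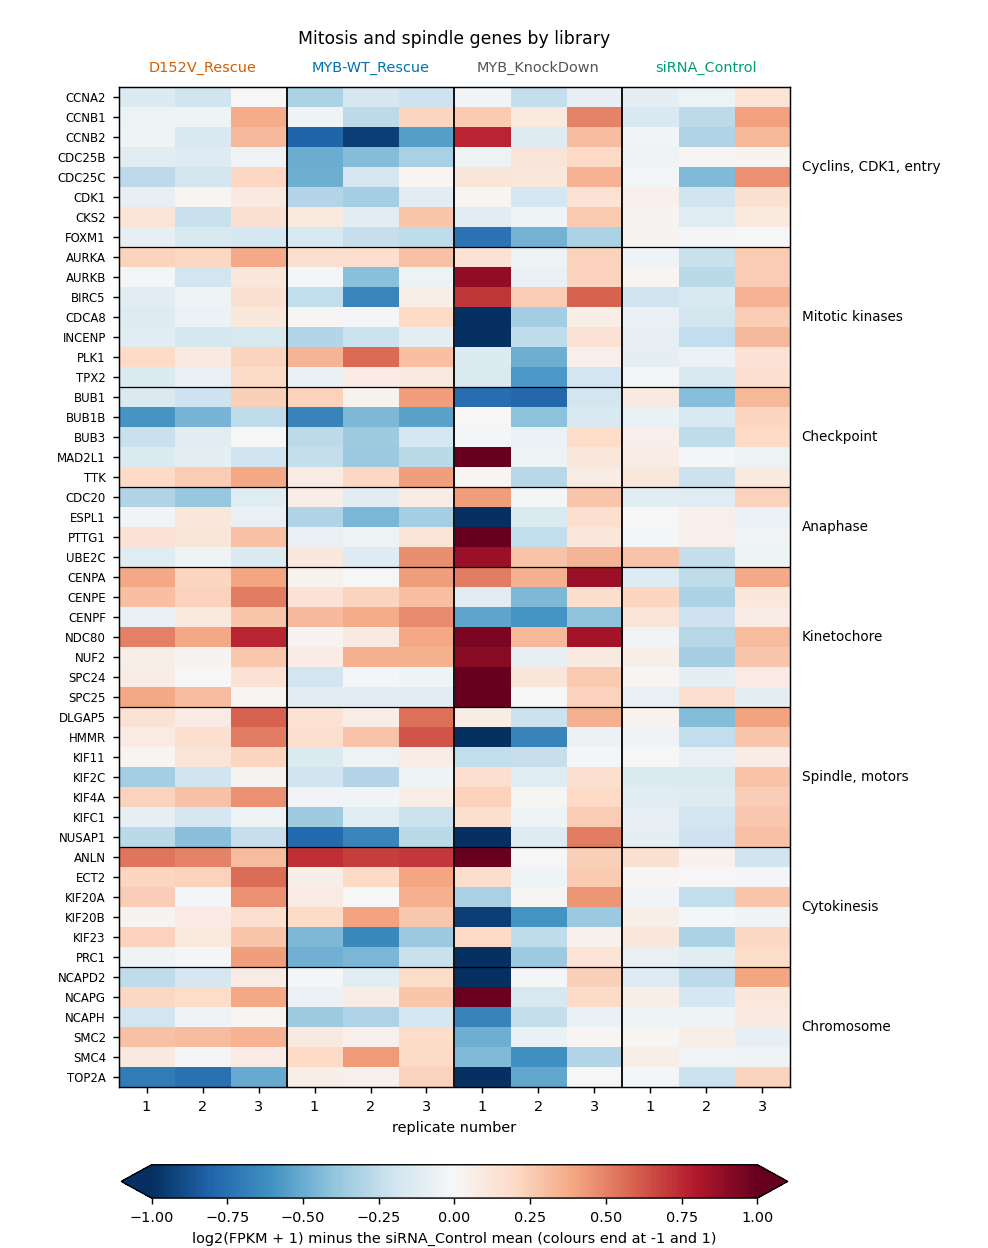
Each row is a member and each column a library. Colour gives log2(FPKM + 1) minus the mean of the siRNA_Control libraries, with members grouped by role. A control library is set against the mean of the other control libraries. MYB_KnockDown replicate 1 holds the darkest cells in both directions, and the third column of each group is redder than its neighbours for many members.

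Replicate 3 stood high within every group. It held the highest value of its group for 42 of 49 members in D152V_Rescue, 35 in MYB-WT_Rescue, 31 in MYB_KnockDown and 36 in siRNA_Control. These are 85.7%, 71.4%, 63.3% and 73.5% of members, against 41.9%, 38.3%, 29.1% and 37.6% of all tested genes. For 19 members replicate 3 was the highest in all 4 groups, a count not taken over all tested genes. CCNB1, the B-type cyclin that drives mitotic entry with CDK1, shows the pattern at 138, 138 and 185 FPKM in D152V_Rescue, 138, 119 and 166 in MYB-WT_Rescue, 171, 153 and 202 in MYB_KnockDown and 133, 127 and 173 in siRNA_Control libraries. Its highest value in each group came from replicate 3, and the span within a group was as wide as the differences between groups. DLGAP5, a microtubule-bundling protein of the spindle, measured 38.1, 36.6 and 52.3 FPKM in D152V_Rescue, 38.2, 36.2 and 50.9 in MYB-WT_Rescue, 36.3, 29.5 and 44.5 in MYB_KnockDown and 35.0, 28.0 and 41.7 in siRNA_Control libraries, with the same order in all 4 groups. Members together held 0.354% to 0.537% of a library's FPKM total, with replicate 3 at 0.525%, 0.505%, 0.524% and 0.537% in D152V_Rescue, MYB-WT_Rescue, MYB_KnockDown and siRNA_Control. This spread within groups enters the error of each comparison below.

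**Figure D2:**
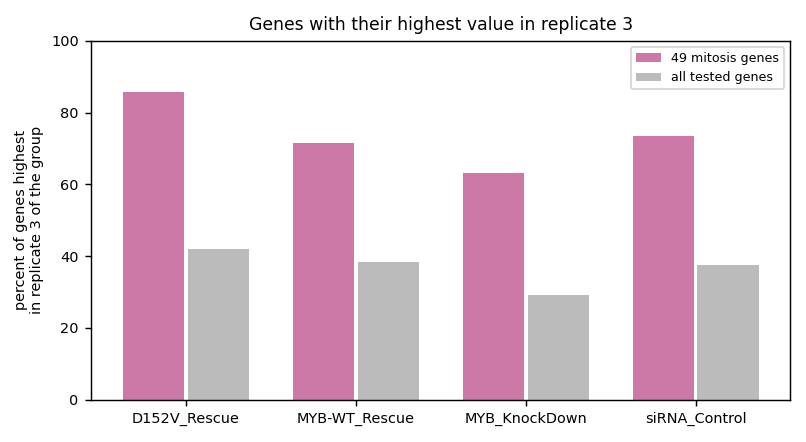
Bars give the percent of genes whose highest value in a group came from replicate 3, for the 49 tested mitosis genes and for all tested genes. In each of the 4 groups the share of mitosis genes, 63.3% to 85.7%, is above that of all tested genes, 29.1% to 41.9%.

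MYB_KnockDown replicate 1 scattered the members widely, as it did all tested genes. The SD over members of the log2 distance from the control mean was 0.786 in that library, against 0.260 and 0.261 in the other knockdown libraries and 0.232 to 0.334 in the rescue libraries. Over all tested genes this SD was wider, at 0.979 in that library and 0.438 and 0.460 in the other knockdown libraries. It was 0.464 to 0.535 in the rescue libraries. In MYB_KnockDown replicate 1, 13 members lay more than 1 log2 unit from the control mean, and in the 11 other libraries none did. The share of all tested genes that far out was not counted. PTTG1 measured 372, 366 and 413 FPKM in D152V_Rescue, 319.8, 324 and 369.8 in MYB-WT_Rescue, 1064, 283 and 364 in MYB_KnockDown and 334, 345 and 332 in siRNA_Control libraries. Knockdown replicate 1 stood apart from the other 11 libraries, among which the D152V_Rescue values lay above the control values. SPC24, an arm of the NDC80 complex, measured 20.6, 19.6 and 21.7 FPKM in D152V_Rescue, 17.1, 19.5 and 19.1 in MYB-WT_Rescue, 51.7, 21.4 and 23.8 in MYB_KnockDown and 19.8, 18.7 and 20.4 in siRNA_Control libraries, and again replicate 1 of the knockdown was far above the rest. ESPL1, the separase that cleaves cohesin, measured 17.5, 19.4 and 16.8 FPKM in D152V_Rescue, 14.3, 12.7 and 13.9 in MYB-WT_Rescue, 6.08, 16.0 and 20.2 in MYB_KnockDown and 17.9, 18.3 and 17.3 in siRNA_Control libraries, where the same library was the lowest. INCENP, the scaffold of the chromosomal passenger complex, showed the same drop, at 22.3, 21.3 and 21.5 FPKM in D152V_Rescue, 19.6, 20.7 and 22.6 in MYB-WT_Rescue, 8.18, 20.1 and 26.8 in MYB_KnockDown and 23.3, 21.5 and 28.2 in siRNA_Control libraries. Over all tested genes the distance from control in that library fell with transcript length, with a Spearman rho of -0.456, against -0.248 and -0.213 in the other knockdown libraries. Over the 49 members rho was -0.472, -0.377 and -0.494 in the 3 knockdown libraries, a description across genes that share libraries. In the siRNA_Control libraries, each set against the other control libraries, it was 0.386, 0.2 and -0.387. It ran from -0.1 to 0.179 in the rescue libraries. Counts of members and of related genes below are therefore also given without MYB_KnockDown replicate 1.

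**Figure D3:**
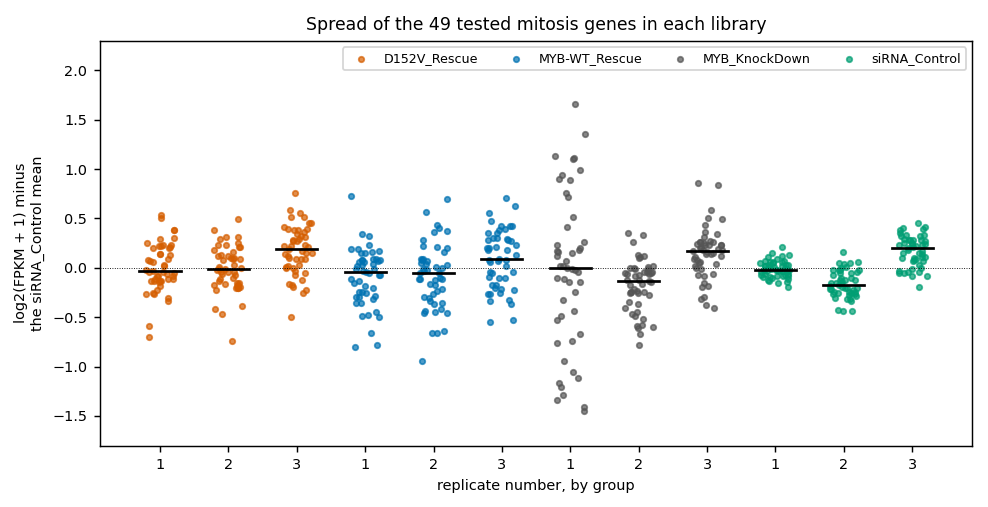
Each point is 1 of the 49 tested members, at its log2(FPKM + 1) minus the siRNA_Control mean, in each of 12 libraries, and black bars are medians. For a control library the mean is that of the other control libraries. MYB_KnockDown replicate 1 spans -1.45 to 1.66, and no point of another library lies beyond 1 in either direction.

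The knockdown was compared with the control in the same tag line, which asks how the mitosis genes behave when MYB is depleted. KIF20B, CENPF, FOXM1 and SMC4 were lower in the knockdown and NDC80 was higher. These 5 of 49 members passed the test, or 10.2%, 1 higher and 4 lower, against 11.3% of all tested genes, 3.94% higher and 7.38% lower (a limma adjusted p under 0.05). At an unadjusted p under 0.05 there were 12 members. The share of all tested genes at that cut was not counted, here or below, so such counts show no excess. The median log2 change of members was 0.03, against -0.03 over all tested genes, and 25 members had a positive and 24 a negative change. Without MYB_KnockDown replicate 1, 6 members passed, 2 higher and 4 lower, against 20.1% of all genes, 972 higher and 1725 lower. The direction among members turned with single knockdown libraries. Without replicate 2, 8 members passed, 5 higher and 3 lower, against 19.4% of all genes, 1104 higher and 1488 lower. Without replicate 3, 9 passed, 0 higher and 9 lower, against 17.8%, 958 higher and 1426 lower. The median log2 change of members was then 0.07 without replicate 2 and -0.08 without replicate 3. Under quantile normalization 7 passed, 2 higher and 5 lower, against 14.6% of all genes, 888 higher and 1064 lower. Under median-ratio scaling 6 passed, 2 higher and 4 lower, against 4.95% of all genes higher and 6.03% lower.

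Among the genes of mitotic entry, 1 of 8 passed. FOXM1 (ENSG00000111206, chromosome 12, 2857680 to 2877174), the transcription factor that switches on many genes of this program, measured 32.5, 30.9 and 30.4 FPKM in D152V_Rescue, 30.9, 29.2 and 28.8 in MYB-WT_Rescue, 20.3, 24.6 and 27.5 in MYB_KnockDown and 34.8, 34.1 and 34.3 in siRNA_Control libraries. The knockdown libraries lay below all 9 others. Against control its log2 change was -0.51 (SE 0.12, limma adjusted p = 0.0233), and -0.39 without knockdown replicate 1. The 7 others, CCNA2, CCNB1, CCNB2, CDK1, CDC25B, CDC25C and CKS2, had log2 changes of -0.12 to 0.31, none called. CDK1, the kinase at the center of mitotic entry, stood at 221, 193 and 241 FPKM in MYB_KnockDown libraries, against 223, 199 and 235 in siRNA_Control libraries, which overlapped. Its log2 change was -0.01 (95% interval -0.28 to 0.27, limma adjusted p = 0.979).

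None of the 7 mitotic kinase and passenger complex genes was called in the knockdown against control. BIRC5 (ENSG00000089685, chromosome 17, 78214253 to 78225635), survivin, a subunit of the chromosomal passenger complex, measured 69.4, 72.8 and 83.2 FPKM in D152V_Rescue, 63.1, 47.0 and 78.4 in MYB-WT_Rescue, 124, 89.8 and 113 in MYB_KnockDown and 68.3, 69.8 and 88.2 in siRNA_Control libraries. The 3 knockdown libraries were above the 9 others, and the log2 change was 0.52 (SE 0.19, limma adjusted p = 0.0926). AURKB, the kinase of the same complex, had a log2 change of 0.35, which was 0.08 without knockdown replicate 1. CDCA8 and INCENP, its other subunits, had -0.45 and -0.52, which became -0.14 and -0.05 without that library.

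The 5 checkpoint genes gave no call. BUB1, a checkpoint kinase of the kinetochore, measured 62.3, 59.7 and 81.3 FPKM in D152V_Rescue, 80.9, 70.5 and 92.5 in MYB-WT_Rescue, 40.2, 39.6 and 60.7 in MYB_KnockDown and 71.8, 56.5 and 80.6 in siRNA_Control libraries. Knockdown replicates 1 and 2 were the lowest of all libraries, while replicate 3 lay among the control values. The log2 change was -0.58 (SE 0.20, limma adjusted p = 0.0809). MAD2L1, which binds and inhibits CDC20, measured 66.4, 68.2 and 63.6 FPKM in D152V_Rescue, 61.6, 56.3 and 60.5 in MYB-WT_Rescue, 159, 70.4 and 79.3 in MYB_KnockDown and 75.5, 72.4 and 71.4 in siRNA_Control libraries. A single knockdown library was high, and its log2 change of 0.39 became 0.03 without it. None of the 3 tested anaphase genes was called either. CDC20, the activator of the anaphase-promoting complex, had a log2 change of 0.23 (SE 0.14, limma adjusted p = 0.264).

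The 7 kinetochore genes moved in both directions, with 1 called higher and 1 lower. NDC80 (ENSG00000080986, chromosome 18, 2571557 to 2616635), the microtubule-binding subunit of the outer kinetochore, measured 56.6, 52.2 and 67.8 FPKM in D152V_Rescue, 40.5, 42.3 and 52.2 in MYB-WT_Rescue, 76.9, 50.1 and 71.5 in MYB_KnockDown and 39.1, 34.6 and 46.1 in siRNA_Control libraries. Every knockdown library was above every control library, and the log2 change was 0.70 (SE 0.18, limma adjusted p = 0.0343). CENPF (ENSG00000117724, chromosome 1, 214603195 to 214664571), a large protein of the outer kinetochore and nuclear matrix, measured 21.8, 24.5 and 27.9 FPKM in D152V_Rescue, 28.8, 29.7 and 32.0 in MYB-WT_Rescue, 15.5, 14.8 and 17.0 in MYB_KnockDown and 24.3, 20.7 and 23.6 in siRNA_Control libraries. Its knockdown libraries were the lowest of the 12 and close to each other. The log2 change was -0.50 (SE 0.12, limma adjusted p = 0.0264), and -0.49 without knockdown replicate 1. CENPA, the histone H3 variant that marks centromeres, measured 20.3, 18.0 and 20.4 FPKM in D152V_Rescue, 15.8, 15.4 and 20.9 in MYB-WT_Rescue, 22.3, 19.9 and 28.7 in MYB_KnockDown and 14.4, 13.5 and 18.5 in siRNA_Control libraries. All knockdown libraries were above all control libraries, with a log2 change of 0.58 (SE 0.17, limma adjusted p = 0.0508). Without knockdown replicate 1 it was 0.61 (SE 0.18, limma adjusted p = 0.0329), the 1 call added there, and its adjusted p ran from 0.0164 to 0.307 over all alternatives. NUF2, SPC24 and SPC25, the partners of NDC80 in its complex, had log2 changes of 0.30, 0.58 and 0.45, which became 0.00, 0.19 and 0.12 without knockdown replicate 1.

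None of the 7 spindle and motor genes was called. HMMR, a spindle pole protein also known as the hyaluronan receptor RHAMM, had the largest change of that role. It measured 87.0, 91.7 and 117 FPKM in D152V_Rescue, 92.6, 100.3 and 127 in MYB-WT_Rescue, 31.9, 51.4 and 78.9 in MYB_KnockDown and 80.8, 73.3 and 93.7 in siRNA_Control libraries. The knockdown libraries ranged from the lowest of all to within the control range, and the log2 change was -0.69 (SE 0.27, limma adjusted p = 0.11). NUSAP1, which bundles spindle microtubules, spread more widely, at 87.6, 79.0 and 90.0 FPKM in D152V_Rescue, 61.1, 66.3 and 87.6 in MYB-WT_Rescue, 42.5, 96.4 and 151 in MYB_KnockDown and 101, 95.8 and 121 in siRNA_Control libraries. Its log2 change of -0.30 turned to 0.19 without knockdown replicate 1. KIF11, the motor that separates spindle poles, measured 26.6, 26.9 and 31.5 FPKM in MYB_KnockDown libraries, against 31.7, 30.6 and 32.8 in siRNA_Control libraries, with a log2 change of -0.16 (95% interval -0.40 to 0.08, limma adjusted p = 0.324).

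In cytokinesis and chromosome condensation 2 of 12 genes were called, both lower. KIF20B (ENSG00000138182, chromosome 10, 89701590 to 89774934), a kinesin of the midzone and abscission, measured 22.9, 23.7 and 25.4 FPKM in D152V_Rescue, 25.7, 29.9 and 27.2 in MYB-WT_Rescue, 11.2, 14.4 and 17.1 in MYB_KnockDown and 23.1, 22.2 and 22.00 in siRNA_Control libraries. Its knockdown libraries lay below all 9 others. The log2 change was -0.64 (SE 0.14, limma adjusted p = 0.0205), and -0.49 without knockdown replicate 1. SMC4 (ENSG00000113810, chromosome 3, 160399650 to 160434953), the ATPase core shared by both condensins, measured 157, 146 and 157 FPKM in D152V_Rescue, 169, 199 and 170.1 in MYB-WT_Rescue, 109, 96.4 and 120.3 in MYB_KnockDown and 151.98, 146 and 145 in siRNA_Control libraries, again with the 3 knockdown libraries at the bottom. Its log2 change was -0.45 (SE 0.12, limma adjusted p = 0.0339). TOP2A, the topoisomerase that untangles sister chromatids, measured 60.5, 58.5 and 69.5 FPKM in D152V_Rescue, 103, 101 and 116 in MYB-WT_Rescue, 42.1, 68.4 and 98.6 in MYB_KnockDown and 97.8, 89.3 and 110.0 in siRNA_Control libraries. Knockdown replicate 3 lay within the control range, and the log2 change of -0.58 (SE 0.24, limma adjusted p = 0.123) did not pass.

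No member was called when any 1 siRNA_Control library was left out, or when only the 6 libraries compared were fitted. Calls over all 13393 tested genes were few in these fits too. They were 31 higher and 142 lower without siRNA_Control replicate 1, 57 and 154 without replicate 2, and 136 and 293 without replicate 3. With the 6 libraries alone they were 4 and 12. NDC80 was also lost without MYB_KnockDown replicate 3, MYB-WT_Rescue replicate 1 or D152V_Rescue replicate 1 or 2, and SMC4 without MYB_KnockDown replicate 2, MYB-WT_Rescue replicate 1 or any 1 D152V_Rescue library. The 4 members that fell have canonical transcripts of 3552 to 10290 bases, and NDC80 has one of 2126 bases. With each library's trend with transcript length removed, KIF20B (-0.37, adjusted p = 0.0304), FOXM1 (-0.37, adjusted p = 0.032) and NDC80 (0.65, adjusted p = 0.0292) still passed, while CENPF (-0.22, adjusted p = 0.293) and SMC4 (-0.22, adjusted p = 0.25) did not. Over all alternatives the limma adjusted p ran from 0.00535 to 0.173 for KIF20B, 0.00507 to 0.186 for FOXM1, 0.00698 to 0.184 for NDC80, 0.012 to 0.293 for CENPF and 0.0107 to 0.25 for SMC4.

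**Figure D4:**
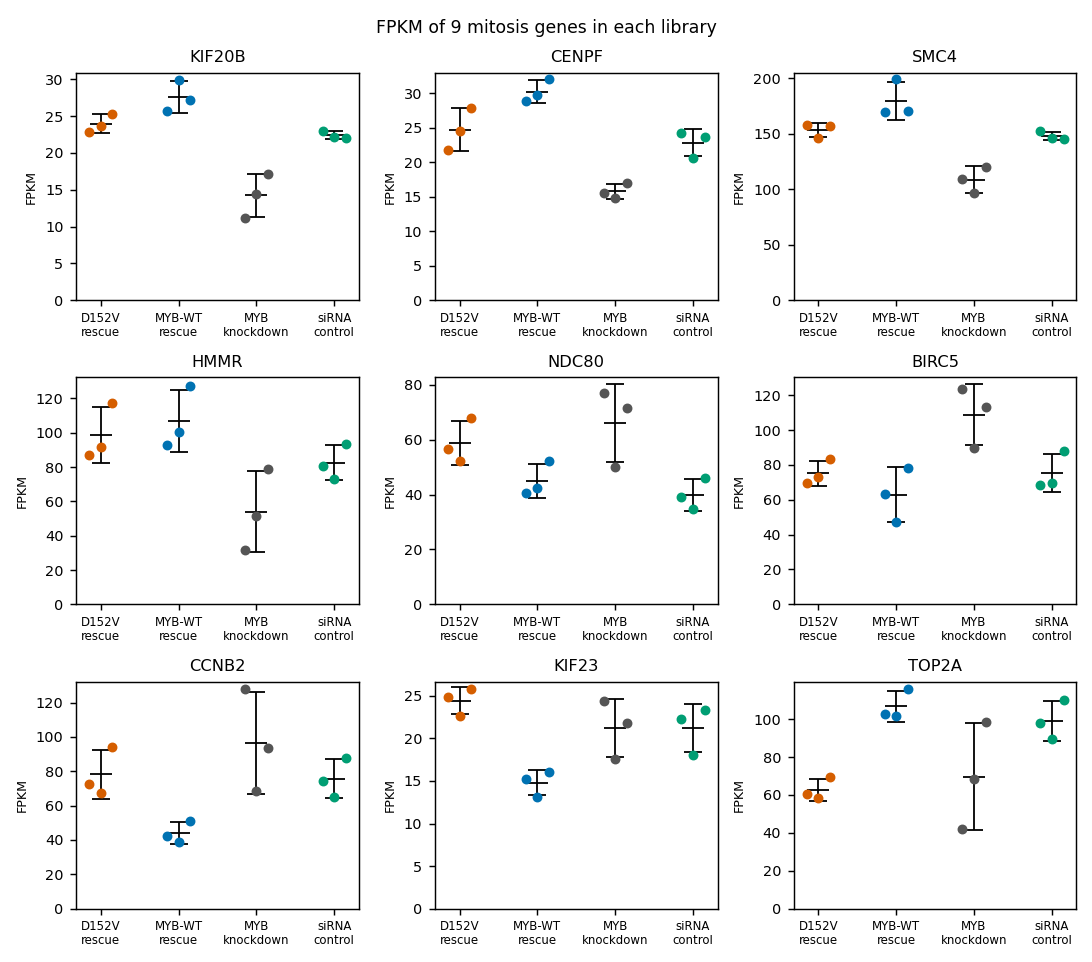
FPKM of 9 members in each library, by group, with bars for the mean and SD of 3 libraries and points in the order of replicates 1 to 3. KIF20B, CENPF and SMC4 are lowest in MYB_KnockDown, CCNB2 and KIF23 are lowest in MYB-WT_Rescue, and TOP2A in D152V_Rescue lies below MYB-WT_Rescue and siRNA_Control.

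The rescues were each compared with the knockdown, which asks what returns when MYB is supplied from a transgene. Both comparisons use the same knockdown libraries, so their values are set side by side and no overlap is counted. In D152V_Rescue 7 of 49 members passed, or 14.3%, 6 higher and 1 lower, against 25.1% of all tested genes, 1745 higher and 1610 lower. In MYB-WT_Rescue 14 members passed, or 28.6%, 7 higher and 7 lower, against 37.6% of all tested genes, 2765 higher and 2266 lower. An unadjusted p under 0.05 was found for 15 members in D152V_Rescue and 24 in MYB-WT_Rescue. Median log2 changes of members were 0.01 in D152V_Rescue and 0.05 in MYB-WT_Rescue, against 0.02 and 0.03 over all tested genes. Without MYB_KnockDown replicate 1, 13 members passed in D152V_Rescue, 11 higher and 2 lower, against 32.4% of all genes, 2221 higher and 2125 lower. In MYB-WT_Rescue 18 then passed, 8 higher and 10 lower, against 45.2%, 3390 higher and 2665 lower. The other knockdown libraries moved the split too. Without replicate 2, D152V_Rescue had 6 members higher and 4 lower, against 30.0% of all genes called, and MYB-WT_Rescue 6 higher and 12 lower, against 41.1%. Without replicate 3, D152V_Rescue had 12 higher and 1 lower, against 32.8%, and MYB-WT_Rescue 11 higher and 6 lower, against 41.7%. All tested genes higher and lower were 1954 and 2058 in D152V_Rescue and 2896 and 2609 in MYB-WT_Rescue without replicate 2. Without replicate 3 they were 2212 and 2177 in D152V_Rescue, and 2996 and 2586 in MYB-WT_Rescue. Median log2 changes of members were 0.08 in D152V_Rescue and -0.09 in MYB-WT_Rescue without knockdown replicate 1, and 0.22 and 0.15 without replicate 3. Quantile normalization gave 11 members in D152V_Rescue, 11 higher and 0 lower, against 28.6% of all genes, 1957 higher and 1880 lower. The median log2 change of members was then 0.21. In MYB-WT_Rescue this normalization gave 19, 8 higher and 11 lower, against 39.6%, 2814 higher and 2494 lower.

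KIF20B, CENPF, SMC4 and HMMR were higher in each rescue than in the knockdown. KIF20B had log2 changes of 0.73 (SE 0.14, limma adjusted p = 0.00487) in D152V_Rescue and 0.92 (SE 0.14, limma adjusted p = 0.000746) in MYB-WT_Rescue. CENPF had 0.61 (SE 0.12, limma adjusted p = 0.00577) in D152V_Rescue and 0.89 (SE 0.12, limma adjusted p = 0.000403) in MYB-WT_Rescue. SMC4 had 0.50 (SE 0.12, limma adjusted p = 0.0119) in D152V_Rescue and 0.72 (SE 0.12, limma adjusted p = 0.00106) in MYB-WT_Rescue. For these 3 genes every rescue library was above every knockdown library. HMMR had 0.94 (SE 0.27, limma adjusted p = 0.0282) in D152V_Rescue and 1.05 (SE 0.27, limma adjusted p = 0.0115) in MYB-WT_Rescue, and every rescue library was above the 3 knockdown values given above. FOXM1 was called in D152V_Rescue, at 0.37 (SE 0.12, limma adjusted p = 0.0376), and had 0.30 (SE 0.12, limma adjusted p = 0.0634) in MYB-WT_Rescue. SMC2 (ENSG00000136824, chromosome 9, 104088263 to 104141419), the partner of SMC4 in condensin, measured 29.2, 29.7 and 30.3 FPKM in D152V_Rescue, 25.3, 24.5 and 27.0 in MYB-WT_Rescue, 16.6, 22.6 and 23.9 in MYB_KnockDown and 23.9, 24.3 and 22.8 in siRNA_Control libraries. All rescue libraries were above all knockdown libraries, with log2 changes of 0.49 (SE 0.13, limma adjusted p = 0.0207) in D152V_Rescue and 0.29 (SE 0.13, limma adjusted p = 0.104) in MYB-WT_Rescue.

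A further 3 members were higher in the wild-type rescue. BUB1 (ENSG00000169679, chromosome 2, 110637528 to 110678063) had log2 changes of 0.54 in D152V_Rescue (adjusted p = 0.0685) and 0.80 (SE 0.20, limma adjusted p = 0.0101) in MYB-WT_Rescue. PLK1 (ENSG00000166851, chromosome 16, 23678889 to 23690367), the polo-like kinase of spindle assembly, measured 138, 128 and 141 FPKM in D152V_Rescue, 153, 178 and 148 in MYB-WT_Rescue, 109, 85.2 and 124 in MYB_KnockDown and 115, 117 and 129 in siRNA_Control libraries. Its log2 changes were 0.36 in D152V_Rescue (adjusted p = 0.0809) and 0.60 (SE 0.14, limma adjusted p = 0.00828) in MYB-WT_Rescue, and the 6 rescue libraries were above the 3 knockdown libraries. TOP2A (ENSG00000131747, chromosome 17, 40388525 to 40417896) had -0.07 in D152V_Rescue (adjusted p = 0.843) and 0.69 (SE 0.24, limma adjusted p = 0.0407) in MYB-WT_Rescue. That call was lost in 16 of 23 alternatives, among them the fit without knockdown replicate 1, at 0.37 (SE 0.14, limma adjusted p = 0.0549), and its adjusted p ran from 0.00372 to 0.303 over them.

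Members lower in MYB-WT_Rescue than in the knockdown included mitotic entry genes. CCNB2 (ENSG00000157456, chromosome 15, 59105146 to 59125045), a B-type cyclin, measured 72.8, 67.4 and 94.3 FPKM in D152V_Rescue, 42.6, 38.6 and 50.96 in MYB-WT_Rescue, 128, 68.6 and 93.3 in MYB_KnockDown and 74.2, 65.1 and 87.6 in siRNA_Control libraries. The MYB-WT_Rescue libraries were below all 9 others, and its log2 changes against the knockdown were -0.27 in D152V_Rescue (adjusted p = 0.367) and -1.08 (SE 0.22, limma adjusted p = 0.00366) in MYB-WT_Rescue. CDC25B (ENSG00000101224, chromosome 20, 3786951 to 3806115), a phosphatase that starts CDK1 activation, measured 17.9, 17.7 and 19.03 FPKM in D152V_Rescue, 13.6, 14.2 and 15.4 in MYB-WT_Rescue, 18.9, 21.5 and 22.5 in MYB_KnockDown and 19.2, 19.6 and 19.8 in siRNA_Control libraries. Again the MYB-WT_Rescue libraries were the lowest, with a log2 change of -0.51 (SE 0.10, limma adjusted p = 0.00381). BIRC5 had -0.52 in D152V_Rescue (adjusted p = 0.0657) and -0.80 (SE 0.19, limma adjusted p = 0.00814) in MYB-WT_Rescue. MAD2L1 (ENSG00000164109, chromosome 4, 120055623 to 120066848) had -0.69 (SE 0.23, limma adjusted p = 0.0395) in MYB-WT_Rescue, where every library was below every knockdown library. Without knockdown replicate 1 its log2 change was -0.33 (SE 0.08, limma adjusted p = 0.0049), and its adjusted p ran from 0.000566 to 0.162 over all alternatives. NDC80 had -0.15 in D152V_Rescue (adjusted p = 0.549) and -0.53 (SE 0.18, limma adjusted p = 0.0393) in MYB-WT_Rescue, and 1 knockdown library overlapped the rescue values. It did not pass without knockdown replicate 1, at -0.41 (adjusted p = 0.0732, with 0.00757 to 0.127 over all alternatives). KIF23 (ENSG00000137807, chromosome 15, 69414349 to 69448427), a kinesin of the central spindle, had -0.48 (SE 0.15, limma adjusted p = 0.0243), and KIFC1 (ENSG00000237649, chromosome 6, 33391461 to 33409896), a motor that focuses spindle poles, measured 35.5, 33.4 and 36.4 FPKM in D152V_Rescue, 29.2, 34.6 and 32.3 in MYB-WT_Rescue, 42.3, 36.6 and 45.1 in MYB_KnockDown and 36.3, 34.4 and 42.9 in siRNA_Control libraries, with -0.36 (SE 0.12, limma adjusted p = 0.0403). The MYB-WT_Rescue libraries were below the knockdown libraries for both.

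CDC20 (ENSG00000117399, chromosome 1, 43358981 to 43363203) was the 1 member lower in D152V_Rescue than in the knockdown. It measured 71.5, 67.6 and 81.3 FPKM in D152V_Rescue, 92.7, 81.9 and 93.3 in MYB-WT_Rescue, 118, 87.6 and 107 in MYB_KnockDown and 84.1, 83.4 and 98.3 in siRNA_Control libraries. The D152V_Rescue libraries were below all others, and log2 changes were -0.49 (SE 0.14, limma adjusted p = 0.0239) in D152V_Rescue and -0.21 in MYB-WT_Rescue (adjusted p = 0.229).

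Leaving out knockdown replicate 1 added 6 calls in each rescue. In D152V_Rescue these were TTK, a checkpoint kinase (log2 change 0.38, adjusted p = 0.043), CDC25B (-0.26, adjusted p = 0.03), ANLN, the scaffold of the contractile ring (0.33, adjusted p = 0.0265), PLK1 (0.39, adjusted p = 0.0493), TPX2, the activator of Aurora A (0.38, adjusted p = 0.0418), and CENPE, a kinetochore motor (0.48, adjusted p = 0.0496). In MYB-WT_Rescue they were ESPL1 (-0.38, adjusted p = 0.0136), BUB3, a checkpoint adaptor (-0.33, adjusted p = 0.0303), ANLN (0.59, adjusted p = 0.00075), TPX2 (0.42, adjusted p = 0.0195), SPC24 (-0.27, adjusted p = 0.0277) and NUSAP1 (-0.76, adjusted p = 0.007). Over all alternatives their adjusted p ran from 0.0092 to 1.0 in D152V_Rescue and from 0.00075 to 0.978 in MYB-WT_Rescue. ANLN measured 52.7, 51.2 and 45.0 FPKM in D152V_Rescue, 60.4, 58.8 and 59.6 in MYB-WT_Rescue, 78.5, 36.00 and 42.7 in MYB_KnockDown and 38.7, 36.8 and 32.8 in siRNA_Control libraries, and knockdown replicate 1 stood above its other 11 values. With all libraries the log2 change of ESPL1 in MYB-WT_Rescue was 0.10, of the opposite sign, and that of ANLN in D152V_Rescue was 0.00.

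When only the 6 libraries compared were fitted, no member was called in D152V_Rescue and 4 in MYB-WT_Rescue. Of 13393 tested genes, 329 were then higher and 219 lower in D152V_Rescue, and 958 and 731 in MYB-WT_Rescue. With the length trend removed 4 members were called in D152V_Rescue, KIF20B and HMMR among them, while CENPF, SMC4, SMC2, FOXM1 and CDC20 were not. Of 13098 genes with a length, 1547 were then higher and 1549 lower in D152V_Rescue. Single libraries also decided some calls. In D152V_Rescue, HMMR and SMC2 were lost without any 1 D152V_Rescue library, CDC20 without D152V_Rescue replicate 1 or 2, and FOXM1 without any 1 of the 9 libraries outside the knockdown. In MYB-WT_Rescue, KIF23 was lost without MYB-WT_Rescue replicate 1 or 2, MAD2L1 without any 1 of the 9 libraries outside the knockdown, and TOP2A without any 1 library but MYB_KnockDown replicate 3. KIFC1 was lost without 9 libraries in turn, all but siRNA_Control replicate 3 and MYB_KnockDown replicates 1 and 2. NDC80 was lost without siRNA_Control replicate 1, MYB_KnockDown replicate 1 or 3, MYB-WT_Rescue replicate 1 or 2, or D152V_Rescue replicate 1 or 2. CCNB2, CENPF, KIF20B and SMC4 in MYB-WT_Rescue against the knockdown passed in all 23 alternatives, the 4 of 31 calls that did so.

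The D152V and wild-type rescues were compared directly, which asks whether the 2 forms of MYB leave the mitosis genes at different levels. KIF23 and CCNB2 were higher in D152V_Rescue, and no member was called lower. These 2 of 49 members, or 4.08%, compare with 12.1% of all tested genes, 5.96% higher and 6.19% lower, and 6 members had an unadjusted p under 0.05. The median log2 change of members was 0.12, against -0.03 over all tested genes. MYB itself was lower in D152V_Rescue, with a log2 change of -0.44 (SE 0.13, limma adjusted p = 0.0494), and its part in these results was not tested.

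KIF23 measured 24.9, 22.7 and 25.8 FPKM in D152V_Rescue, 15.2, 13.2 and 16.1 in MYB-WT_Rescue, 24.4, 17.5 and 21.8 in MYB_KnockDown and 22.3, 18.1 and 23.4 in siRNA_Control libraries. Its D152V_Rescue libraries were above its MYB-WT_Rescue libraries, while the knockdown and control values overlapped those of D152V_Rescue. The log2 change of D152V_Rescue against MYB-WT_Rescue was 0.69 (SE 0.15, limma adjusted p = 0.00965). CCNB2, with the values given above, had 0.81 (SE 0.22, limma adjusted p = 0.0329), again without overlap between the rescues. Its call was lost without siRNA_Control replicate 1, MYB-WT_Rescue replicate 1 or 2, or any 1 D152V_Rescue library.

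TOP2A lay in the other direction. Its D152V_Rescue libraries were all below its MYB-WT_Rescue and siRNA_Control libraries, and the log2 change against MYB-WT_Rescue was -0.76 (SE 0.24, limma adjusted p = 0.0622). CDC25B was higher in D152V_Rescue by 0.32 (SE 0.10, limma adjusted p = 0.0691), without overlap. With replicate number as a block, since same-numbered libraries of the rescues deviated together, 4 members passed, 3 higher and 1 lower, against 14.0% of all tested genes. These were KIF23 (0.69, adjusted p = 0.00203), CCNB2 (0.81, adjusted p = 0.0121), CDC25B (0.32, adjusted p = 0.048) and TOP2A (-0.76, adjusted p = 0.0338).

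Without MYB_KnockDown replicate 1, a library of neither rescue, the log2 changes stay as they are and only the shared spread narrows. Then 10 members passed, 8 higher and 2 lower, against 31.4% of all tested genes, 1825 higher and 2384 lower. Beside KIF23 (adjusted p = 0.00128) and CCNB2 (adjusted p = 0.0032), the members higher were CDC25B (0.32, adjusted p = 0.00572), ESPL1 (0.37, adjusted p = 0.0131), PRC1 (0.51, adjusted p = 0.0229), SPC25 (0.35, adjusted p = 0.0199), KIF4A (0.33, adjusted p = 0.0228) and SMC2 (0.21, adjusted p = 0.0338). TOP2A (-0.76, adjusted p = 0.00124) and ANLN (-0.26, adjusted p = 0.0445) were lower. Over all alternatives the adjusted p of the 8 genes added here ran from 0.00117 to 0.966. PRC1, the microtubule crosslinker of the central spindle, measured 78.8, 80.2 and 109 FPKM in D152V_Rescue, 57.8, 58.7 and 69.2 in MYB-WT_Rescue, 37.0, 62.8 and 89.3 in MYB_KnockDown and 78.2, 77.1 and 88.4 in siRNA_Control libraries, and its 3 D152V_Rescue values were above those of MYB-WT_Rescue. SPC25, a subunit of the NDC80 complex, measured 126, 119 and 97.2 FPKM in D152V_Rescue, 88.3, 89.1 and 88.8 in MYB-WT_Rescue, 210.5, 95.8 and 113 in MYB_KnockDown and 92.6, 103 and 92.0 in siRNA_Control libraries, where the lowest D152V_Rescue library was above the highest of MYB-WT_Rescue. KIF4A, a chromosome-bound kinesin that works with PRC1, measured 23.6, 24.6 and 27.8 FPKM in D152V_Rescue, 19.5, 19.5 and 20.9 in MYB-WT_Rescue, 23.6, 20.2 and 23.1 in MYB_KnockDown and 18.9, 18.7 and 22.4 in siRNA_Control libraries, with every D152V_Rescue library above every MYB-WT_Rescue and siRNA_Control library.

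BUB1 and BUB3, both checkpoint genes, were not called between the rescues. BUB1 differed by -0.26 (95% interval -0.70 to 0.17, limma adjusted p = 0.481), and BUB3, at 106, 114 and 123 FPKM in D152V_Rescue libraries, against 103, 96.0 and 109 in MYB-WT_Rescue libraries, by 0.15 (95% interval -0.11 to 0.42, limma adjusted p = 0.515). Both intervals include 0, and that of BUB1 reaches a size called for other members.

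Both members called between the rescues lie on chromosome 15. Of the 5 members there, BUB1B (ENSG00000156970, chromosome 15, 40161069 to 40221123) and NUSAP1 (ENSG00000137804, chromosome 15, 41332881 to 41381046) start below 45 Mb, and CCNB2, KIF23 and PRC1 (ENSG00000198901, chromosome 15, 90966040 to 90994535) start above it. The genes of the chromosome moved together in the rescue lines. Between D152V_Rescue and MYB-WT_Rescue, the 272 tested genes that start above 45 Mb had a median log2 change of 0.48, and the 122 below it one of -0.03. The 3 members above 45 Mb had 0.81, 0.69 and 0.51 for CCNB2, KIF23 and PRC1, and BUB1B and NUSAP1 below it had 0.12 and 0.27. The medians of the 22 other chromosomes lay between -0.13 and 0.16. In MYB-WT_Rescue against control the median over 394 genes of chromosome 15 was -0.46, with 92.9% of them below 0, against medians of -0.14 to 0.11 on the other chromosomes. In D152V_Rescue against control it was -0.54 below 45 Mb and 0.02 above. The boundary was chosen after seeing the values, and DNA content was not measured.

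**Figure D5:**
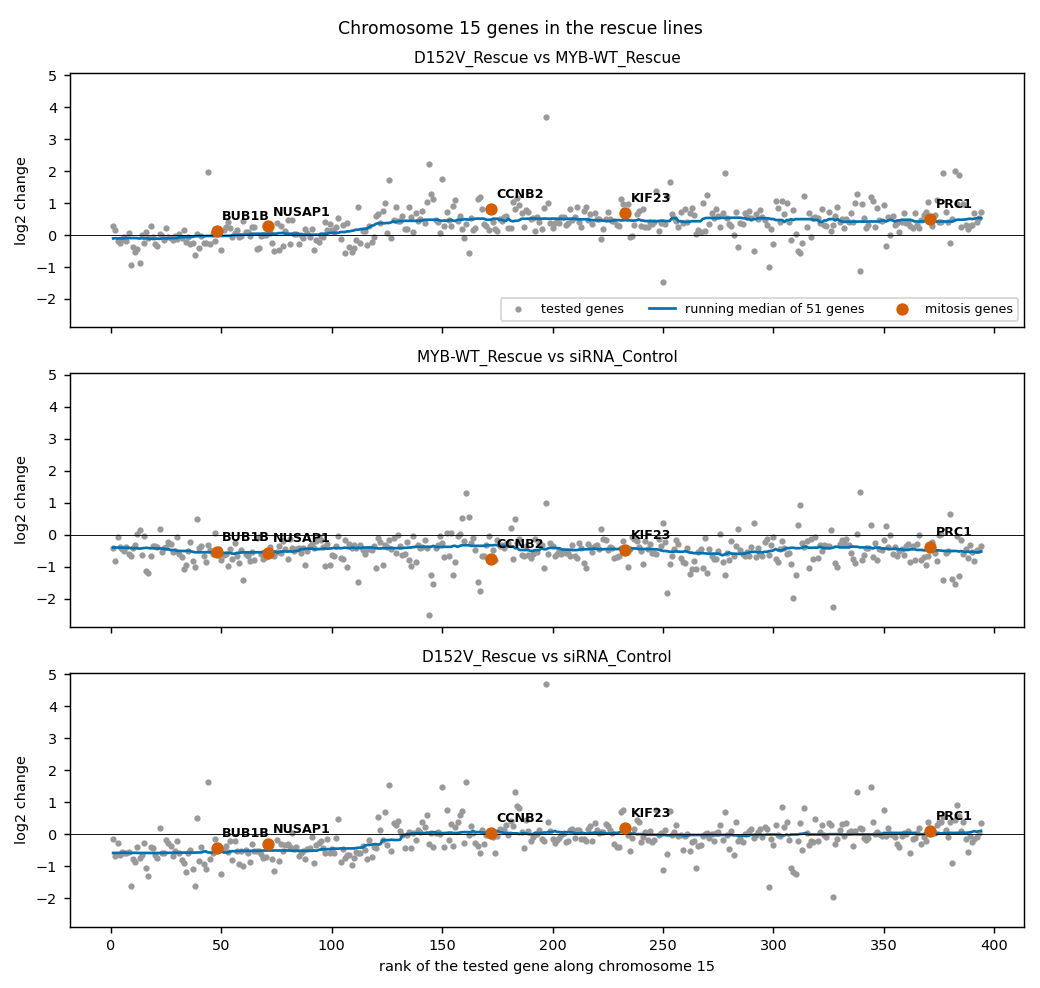
Log2 changes of the 394 tested genes of chromosome 15, in order along the chromosome, in 3 comparisons. The blue line is the running median of 51 genes, and the 5 mitosis genes are marked in orange. CCNB2, KIF23 and PRC1 lie near a raised line in D152V_Rescue against MYB-WT_Rescue, and all 5 lie below 0 with the line in MYB-WT_Rescue against siRNA_Control.

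The comparison was repeated after subtracting, in each library, the median of the 51 nearest tested genes on the same chromosome, a setting added after seeing the data. Then limma called no member between the rescues, against 10.8% of 11979 placed genes, and 4 members had an unadjusted p under 0.05. The log2 change of KIF23 became 0.18 (SE 0.13, limma adjusted p = 0.507), and that of CCNB2 0.34 (SE 0.23, limma adjusted p = 0.438). Over all alternatives the adjusted p ran from 0.000889 to 0.507 for KIF23 and from 0.000295 to 0.438 for CCNB2. PRC1 then had 0.03, while CDC25B, on chromosome 20, had 0.33. Against the knockdown in MYB-WT_Rescue, where 34.7% of placed genes were called, CCNB2 still passed, at -0.82 (adjusted p = 0.0176, with 0.000329 to 0.0388 over all alternatives), and KIF23 did not, at -0.03 (adjusted p = 0.893, with 0.00245 to 0.893).

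The rescues were also compared with the control line, which asks how far the members stood from cells with MYB left in place. In D152V_Rescue limma called 0 of 49 members, against 9.55% of all tested genes, 4.61% higher and 4.94% lower, and 7 members had an unadjusted p under 0.05. In MYB-WT_Rescue 3 members passed, all lower, or 6.12% of 49, against 9.62% of all tested genes, 5.04% higher and 4.58% lower. They were CCNB2, BUB1B and CDC25B. Under quantile normalization 6 passed in MYB-WT_Rescue, 2 higher and 4 lower, against 6.31% of all genes higher and 5.68% lower. Median log2 changes of members were 0.05 in D152V_Rescue and 0.00 in MYB-WT_Rescue.

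BUB1B (BUBR1), the checkpoint protein that inhibits the anaphase-promoting complex with MAD2L1, measured 34.8, 38.0 and 44.2 FPKM in D152V_Rescue, 32.9, 38.3 and 36.2 in MYB-WT_Rescue, 52.7, 39.4 and 47.4 in MYB_KnockDown and 51.2, 49.2 and 58.4 in siRNA_Control libraries. All 6 rescue libraries were below all 3 control libraries. Its log2 changes were -0.43 (SE 0.14, limma adjusted p = 0.0757) in D152V_Rescue and -0.55 (SE 0.14, limma adjusted p = 0.028) in MYB-WT_Rescue. CCNB2 had 0.04 in D152V_Rescue (adjusted p = 0.955) and -0.76 (SE 0.22, limma adjusted p = 0.0496) in MYB-WT_Rescue. CDC25B had -0.09 in D152V_Rescue (adjusted p = 0.698) and -0.42 (SE 0.10, limma adjusted p = 0.0278) in MYB-WT_Rescue, and its libraries of both rescues lay below the control libraries. After the medians of neighbouring genes were subtracted, no member passed in D152V_Rescue, against 8.51% of placed genes, or in MYB-WT_Rescue, against 7.81%, by limma, and 4 and 6 members had an unadjusted p under 0.05. BUB1B, on chromosome 15, then had 0.02 in MYB-WT_Rescue (adjusted p = 0.953), and CDC25B had -0.35 (adjusted p = 0.0684). Over all alternatives the adjusted p in MYB-WT_Rescue ran from 0.00209 to 0.953 for BUB1B, 0.00109 to 0.349 for CCNB2 and 0.0012 to 0.102 for CDC25B. Each of the 3 calls was also lost without any 1 siRNA_Control library and without MYB-WT_Rescue replicate 1 or 2. BUB1B and CCNB2 were lost without MYB-WT_Rescue replicate 3 too, and CCNB2 without MYB_KnockDown replicate 3 or any 1 D152V_Rescue library.

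Without MYB_KnockDown replicate 1, in neither comparison, 6 members passed in D152V_Rescue against control, 4 higher and 2 lower. Of all tested genes 27.7% were called, 1506 higher and 2200 lower. The members were NDC80 (0.55, adjusted p = 0.0223), ANLN (0.45, adjusted p = 0.00361), KIF4A (0.33, adjusted p = 0.0249) and SMC2 (0.32, adjusted p = 0.00494), which were higher, and TOP2A (-0.65, adjusted p = 0.00375) and BUB1B (-0.43, adjusted p = 0.0125), which were lower. In MYB-WT_Rescue 15 members then passed, 5 higher and 10 lower, against 29.7% of all genes, 1850 higher and 2123 lower. Higher were ANLN (0.71, adjusted p = 0.000257), PLK1 (0.40, adjusted p = 0.0302), CENPF (0.39, adjusted p = 0.0149), KIF20B (0.29, adjusted p = 0.025) and SMC4 (0.28, adjusted p = 0.0403). Lower, beside the 3 genes called before, were NUSAP1 (-0.57, adjusted p = 0.0257), KIF23 (-0.49, adjusted p = 0.0103), ESPL1 (-0.36, adjusted p = 0.0149), MAD2L1 (-0.29, adjusted p = 0.00791), the condensin subunit NCAPH (-0.28, adjusted p = 0.0245), CCNA2, the S and G2 phase cyclin (-0.23, adjusted p = 0.0427), and FOXM1 (-0.21, adjusted p = 0.0347). Over all alternatives the adjusted p of the genes added here ran from 0.00258 to 0.903 in D152V_Rescue and from 0.000257 to 0.968 in MYB-WT_Rescue. ANLN lay above control in all 6 rescue libraries. Of the members lower in MYB-WT_Rescue, CCNB2, BUB1B, NUSAP1 and KIF23 are on chromosome 15.

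Related genes outside the 50 were counted in the same fit. In the knockdown against control, 0 of 15 cohesin and condensin II genes were called higher and 3 lower, led by PDS5B, a cohesin regulator, at -0.75 (SE 0.12, limma adjusted p = 0.00736). Of 20 spindle pole and augmin genes 0 were called higher and 3 lower, among them HAUS6 at -0.70 (SE 0.10, limma adjusted p = 0.0052). Of 19 genes of the anaphase-promoting complex and its regulators 3 were higher and 2 lower, with the small subunit ANAPC11 at 1.26 (SE 0.29, limma adjusted p = 0.0245). Of 42 other late cell cycle genes 1 was higher and 2 lower, of 29 other kinetochore genes 2 and 1, and of 16 genes of the DREAM and MuvB complexes 1 and 2. LIN9, a MuvB subunit, had -0.49 (SE 0.14, limma adjusted p = 0.0447). Of 36 DNA replication genes limma called 0, and 8 had an unadjusted p under 0.05. The share called in the knockdown, 11.3% of all tested genes, was the background for these lists. With MYB_KnockDown replicate 1 left out, against 20.1% of all tested genes, 0 cohesin and condensin II genes were higher and 6 lower, 0 spindle pole and augmin genes were higher and 5 lower, and 4 genes of the anaphase-promoting complex were higher and 2 lower. Higher and lower counts were then 1 and 2 for late cell cycle genes, 6 and 1 for kinetochore genes, 1 and 4 for DREAM and MuvB genes, and 1 and 5 for DNA replication genes.

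DNA replication genes, the program of S phase, were counted in the rescues as well. Against the knockdown 2 of 36 were higher and 5 lower in D152V_Rescue, where 25.1% of all tested genes were called, and 1 was higher and 9 lower in MYB-WT_Rescue, where 37.6% were. Among them was the helicase subunit MCM7 at -0.62 (SE 0.15, limma adjusted p = 0.0164) in D152V_Rescue and -0.79 (SE 0.15, limma adjusted p = 0.00313) in MYB-WT_Rescue. Against control 4 of 36 were lower in D152V_Rescue, with the licensing factor CDC6 at -0.59 (SE 0.12, limma adjusted p = 0.00844), and 2 in MYB-WT_Rescue, with the flap endonuclease FEN1 at -0.85 (SE 0.20, limma adjusted p = 0.0197). None was higher in either, and of all tested genes 4.94% were lower in D152V_Rescue and 4.58% in MYB-WT_Rescue. Without MYB_KnockDown replicate 1, 2 were higher and 8 lower in D152V_Rescue and 1 and 10 in MYB-WT_Rescue against the knockdown, with 32.4% and 45.2% of all genes called. Against control 1 was then higher and 12 lower in D152V_Rescue and 0 and 16 in MYB-WT_Rescue, with 27.7% and 29.7% of all genes called. Between the rescues 1 was lower in D152V_Rescue, CDC6, at -0.46 (SE 0.12, limma adjusted p = 0.0249), against 12.1% of all tested genes called. Without MYB_KnockDown replicate 1, 3 were higher and 4 lower, against 31.4%. Mitosis members called against the knockdown were 6 higher and 1 lower in D152V_Rescue and 7 and 7 in MYB-WT_Rescue, and no test compared the lists.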

How the data were processed

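Poly(A) RNA of 12 K-562 libraries was sequenced on stranded TruSeq libraries with 125-base paired reads, per the labels' protocols. Gene-level FPKM values were deposited by the authors as a single table of 60658 genes, and its 12 columns were assigned to libraries by name. The submitters' processing notes name, with no order, Cufflinks 2.2.1, TopHat2 2.0.13, Trimmomatic 0.33, bcl2fastq 2.17.1.14 and the build GRCh38. They name neither the annotation nor the use of strand in counting. Read depth is unknown, and no counting intervals are given. For 694 genes of low FPKM, above 0 in every library, ratios between 2 libraries were set against the median ratio of that pair. The share of ratios within 2% of it had a median of 2.09% over pairs, which does not give the number of reads.

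Symbols were matched for 56950 genes, and lengths are those of canonical GENCODE transcripts (97.8% of tested genes). Genes that reached 1 FPKM in 3 or more libraries were tested on log2(FPKM + 1), a scale that understates changes of low genes. A single limma model (limma 3.58.1, R 4.3.3) with group means and a trended variance took all 12 libraries, which leaves 8 residual degrees of freedom. Each of 6 contrasts was called at an adjusted p under 0.05 (Benjamini-Hochberg, over the whole set of tested genes). The 12 libraries come from separate experiments per the labels, and no libraries held identical values.

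The members and gene lists were chosen with earlier results of these data known. Members called with all libraries or without MYB_KnockDown replicate 1 are named, as are those with the largest changes of each role, and other lists are represented by at most 3 called genes. BUB1 and BUB3 between the rescues, and CCNB1, DLGAP5, CDK1 and KIF11, were chosen as examples after their values were seen. Same-numbered libraries of D152V_Rescue and MYB-WT_Rescue deviated together, with correlations of 0.153, 0.169 and 0.233 against -0.22 to 0.0621 for libraries of different number, so a fit with replicate number as a block was used there as an alternative. Deviations were taken from group means, so positive correlations at the same number tend to make those at different numbers negative. Other group pairs did not pass the check of same-numbered libraries, which set a threshold on their correlations. Knockdown and control missed that threshold, at 0.0376 to 0.132, though each of 6 libraries there correlated best with its own number. Each library was left out in turn, and the fit was repeated on the 6 libraries compared, with the length trend removed, with median-ratio scaling or quantile normalization, unfiltered, with a floor of 5 on the mean FPKM, and with 0.1 as the pseudocount. A neighbouring-gene correction over 51 genes was added after seeing the data. Tables were joined with pandas 2.3.3 under Python 3.11.15, and plots were drawn with matplotlib 3.10.9.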

Additional observations from a re-analysis of the deposited data

How the results depend on the processing

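Of 31 calls of single members, 4 passed in all 23 alternatives. Leaving out 1 library at a time, members called ranged over 1 to 10 in D152V_Rescue against MYB-WT_Rescue, 3 to 13 in D152V_Rescue and 9 to 18 in MYB-WT_Rescue against MYB_KnockDown, and 0 to 6 in D152V_Rescue, 0 to 15 in MYB-WT_Rescue and 0 to 9 in MYB_KnockDown against siRNA_Control. The high ends came without MYB_KnockDown replicate 1, and also without replicate 3 in D152V_Rescue and without replicate 2 in MYB-WT_Rescue against the knockdown, while the 9 of the knockdown against control came without replicate 3. In the order of these 6 comparisons the member counts with all libraries were 2, 7, 14, 0, 3 and 5. The shares of all tested genes were 12.1%, 25.1%, 37.6%, 9.55%, 9.62% and 11.3%. With 1 library left out, calls over all tested genes ranged over 1020 to 4209, 1639 to 4389 and 3194 to 6055. Against control these ranges were 725 to 3706, 682 to 3973 and 173 to 2697. With the 6 libraries compared alone the member counts were 9, 0, 4, 8, 14 and 0, with fewer libraries to estimate the spread. Over all 13393 tested genes, in the same order, higher and lower calls were 1437 and 1838, 329 and 219, and 958 and 731. Against control they were 1462 and 2113, 1638 and 1874, and 4 and 12. With the length trend removed 4, 4, 14, 3, 5 and 3 members were called. Over 13098 genes with a length, higher and lower calls were 1003 and 929, 1547 and 1549, and 2264 and 2233. Against control they were 861 and 753, 872 and 772, and 626 and 739. Without MYB_KnockDown replicate 1 and with the length trend removed, D152V_Rescue gave 12 members against MYB-WT_Rescue, 12 against the knockdown and 10 against control, and MYB-WT_Rescue gave 15 against control. Of all 13098 genes, 1951 were higher and 2103 lower, 1978 and 2004, 1796 and 1831, and 1927 and 1982 in these comparisons. Quantile normalization gave 4, 11 and 3 members in D152V_Rescue against MYB-WT_Rescue, the knockdown and control, and 6 in MYB-WT_Rescue against control. Of all tested genes, 934 were higher and 943 lower, 1957 and 1880, 777 and 730, and 845 and 761 in these comparisons.

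The rescues alone passed the check of same-numbered libraries. Between them the replicate block gave 4 members in D152V_Rescue against MYB-WT_Rescue, and 7 with the length trend removed too. Of all genes 928 were higher and 943 lower, and 1181 and 1076 with the length trend removed. For group pairs that did not pass that check, the block gave 11 members in D152V_Rescue and 19 in MYB-WT_Rescue against the knockdown. Of these 19, 7 were higher and 12 lower. Over all tested genes 1975 were higher and 1697 lower in D152V_Rescue, and 2967 and 2373 in MYB-WT_Rescue. Against control it gave 9 members in the knockdown, of which 3 were higher and 6 lower. It gave 5 members in MYB-WT_Rescue and 1 in D152V_Rescue. All tested genes then had 587 higher and 1125 lower, 785 and 713, and 740 and 759. With the length trend removed too it gave 5 each in MYB-WT_Rescue and D152V_Rescue against control. Of all genes 982 were then higher and 930 lower in MYB-WT_Rescue, and 1038 and 869 in D152V_Rescue. Same-numbered libraries correlated by 0.0376 to 0.132 between knockdown and control, where each of 6 libraries correlated best with its own number, a hint from the data and not from the design. Replicate 3 of siRNA_Control and of MYB-WT_Rescue correlated by 0.349, while replicates 1 and 2 of these groups gave 0.0245 and 0.0509. With the median of neighbouring genes removed 0 members were called in D152V_Rescue against MYB-WT_Rescue and 0 in MYB-WT_Rescue against control. Of placed genes 10.8% and 7.81% were called.

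Among the members and comparisons called with all libraries or without MYB_KnockDown replicate 1, signs turned in 4 genes. Members called in neither, such as PTTG1, NCAPD2 and NUSAP1 in the knockdown against control, turned as well, to -0.07, 0.11 and 0.19 without that library, and were not followed through the other alternatives. ESPL1 in MYB-WT_Rescue against the knockdown, at 0.10 with all libraries, was -0.24 with the length trend removed, with or without the replicate block, and -0.59 with MYB_KnockDown replicate 1 left out as well. Leaving out single libraries gave it -0.38 (MYB_KnockDown replicate 1) to 0.41 (replicate 3). NUSAP1 there, at -0.27, was 0.31 with neighbouring genes removed, and -0.76 to 0.14 with single libraries left out (MYB_KnockDown replicates 1 and 3). ANLN in D152V_Rescue against the knockdown was near 0 and became -0.015 with median-ratio scaling, -0.19 with the length trend removed, with or without the block, -0.23 with neighbouring genes removed, and -0.22 to 0.33 with single libraries left out (MYB_KnockDown replicates 2 and 1). BUB1B with neighbouring genes removed was 0.14 in D152V_Rescue and 0.022 in MYB-WT_Rescue against control. The cause of these shifts was not tested.

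Over all tested genes, calls between knockdown and control numbered 1516, against 173 to 2697 with a library left out. Between the rescues they numbered 1627, against 1020 to 4209. Depth is unknown, so its limits cannot be stated.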
